A study of Arabidopsis thaliana with 8 samples.

Results

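The comparison of lhp1-4 shoots with wild type shoots set 2 arrays of lhp1-4 against 2 of wild type, 4 of the 8 arrays of the series. They were chosen by genotype label alone, and 22716 probe sets were compared. The log2 changes come from these 4 arrays, while the spread behind each test was estimated over all 8. Where a deposited value could be read on 2 scales, all 8 arrays of its probe set helped to settle it. All plants were Arabidopsis thaliana of accession Col-0, untreated and 18 days old, and each array came from a pool of 6 plants. The other 4 arrays came from the lhp1-4 bpc4 bpc6 triple mutant and from its reference, bpc4 bpc6, with 2 arrays each. They also served as a second measurement of the loss of LHP1, made where BPC4 and BPC6 were lost as well. The labels give the allele name lhp1-4 but not its lesion.

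LHP1 (LIKE HETEROCHROMATIN PROTEIN 1, also called TERMINAL FLOWER 2) is a chromodomain protein that reads the methyl mark set on histone H3 by the Polycomb group and helps to keep the marked genes silent. Its loss is known in Arabidopsis for early flowering and for small, curled leaves. BPC4 and BPC6 belong to the BASIC PENTACYSTEINE family of plant proteins that recognise GAGA repeats in DNA. Per the series title, BPC6 brings LHP1 to such repeats. The comparison addressed which transcripts depend on LHP1 in the shoot.

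Array identifiers stand for the transcripts throughout, because neither the deposited table nor the gene table used here pairs them with genes. No gene or function could therefore be named, and lists of floral, flowering time, defence, hormone, starch and glucosinolate genes drawn up for this comparison were not applied. For the same reason the transcript of LHP1 itself was not analysed here, and the shoot label was not checked against leaf or root markers. In whole shoots, fewer cells of a type and less RNA per cell cannot be told apart.

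Replicates lay close together. The correlation of log2 intensities was 0.997 between the lhp1-4 arrays and 0.993 between the wild type arrays. The lhp1-4 arrays differed by at least 2-fold in 36 probe sets, 0.158% of all, and the wild type arrays in 274, 1.21% of all. Median intensities were 58.3 and 57.2 on the lhp1-4 arrays, against 54.7 and 54.8 on the wild type arrays. The labels describe replicates as biological, so the spread used in the tests is that between pools of plants.

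Among the probe sets compared, the largest responses to the loss of LHP1 were rises of probe sets that were dim in wild type. Probe set 246687_AT had intensities of 702 and 763 on the lhp1-4 arrays, against 10.5 and 18.1 on the wild type arrays. It changed by 5.73 ± 0.27 on the log2 scale (limma adjusted p = 0.000254; errors are moderated SE from 2 arrays a genotype), the largest rise among all called probe sets. Probe set 245275_AT had 803 and 584 in lhp1-4, against 16.1 and 16.8 in wild type, which gave 5.38 ± 0.46 on the log2 scale (adjusted p = 0.00205, limma). For both probe sets the lower lhp1-4 array stood far above the higher wild type array.

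The largest falls went the other way. Probe set 247878_AT had 7.69 and 7.67 in lhp1-4, against 151 and 122 in wild type, which gave -4.15 ± 0.17 on the log2 scale (adjusted p = 0.000254, limma). Probe set 258419_AT had 89.3 and 146 in lhp1-4, against 1460 and 2770 in wild type, which gave -4.14 ± 0.42 on the log2 scale (adjusted p = 0.00358, limma). The wild type arrays of 258419_AT were themselves apart, yet both lay well above both lhp1-4 arrays. On the values as deposited, before the scale was restored, 258419_AT gave a log2 change of 5.82, so its sign depends on that step.

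The same 4 probe sets were then read on the arrays without BPC4 and BPC6. Probe set 246687_AT had 1040 and 1140 in the triple mutant, against 26.6 and 38.8 in bpc4 bpc6, which gave 5.08 ± 0.27 on the log2 scale (adjusted p = 0.000138, limma). Probe set 245275_AT had 981 and 506 in the triple mutant, against 86.3 and 34.5 in bpc4 bpc6, which gave 3.69 ± 0.46 on the log2 scale (adjusted p = 0.00233, limma). Both rises were thus also called between arrays that did not enter the first log2 change, although all 8 arrays shared 1 estimate of the spread.

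Probe set 247878_AT had 6.91 and 5.43 in the triple mutant, against 19.4 and 15.4 in bpc4 bpc6, which gave -1.50 ± 0.17 on the log2 scale (adjusted p = 0.00167, limma). It was already low in bpc4 bpc6, and the log2 changes in both backgrounds differed by 2.65 ± 0.24 (limma interaction adjusted p = 0.00821). On the reading used, both lhp1-4 and the triple mutant were near the floor of the array, while bpc4 bpc6 started lower than wild type. A different response to the loss of LHP1 cannot be told apart from that lower start, and was not tested. The probe set was also chosen for its large fall in lhp1-4. The interaction call also ended without lhp1-4 replicate 2, at an adjusted p of 0.0521, with the same difference of 2.65. Probe set 258419_AT had 58.0 and 28.9 in the triple mutant, against 2840 and 2570 in bpc4 bpc6, which gave -6.05 ± 0.42 on the log2 scale (adjusted p = 0.000298, limma). The interaction of the other three probe sets did not pass the threshold, with -0.65 ± 0.39 for 246687_AT, -1.69 ± 0.66 for 245275_AT and -1.91 ± 0.60 for 258419_AT (limma adjusted p = 0.487, 0.266 and 0.179). With 2 arrays per genotype these errors leave room for sizeable differences.

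**Figure D1:**
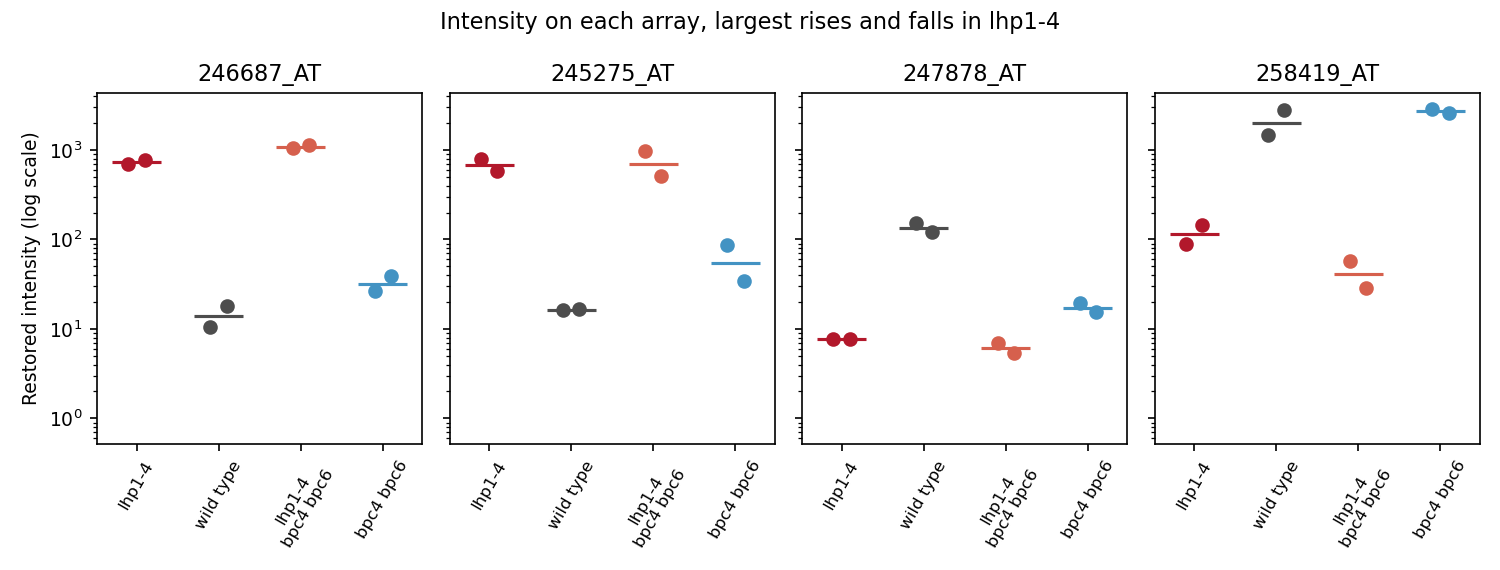
Restored intensity (log scale) of the 2 largest rises and the 2 largest falls in lhp1-4, with a point for each array and a bar at the geometric mean of 2 arrays, by genotype. Arrays of lhp1-4 and wild type do not overlap in any panel, by the choice of these probe sets. Probe set 247878_AT is low in bpc4 bpc6 as well, at 19.4 and 15.4.

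Across the array, 1366 probe sets were called, 6.01% of those tested (limma adjusted p under 0.05). In lhp1-4 802 of them rose, 3.53% of those tested, and 564 fell, 2.48%. The arrays of both genotypes did not overlap for any of these calls. Without regard to the test, both lhp1-4 arrays lay above both wild type arrays in 20.8% of probe sets and below both in 40.0%, so separation of 2 arrays from 2 was common. The log2 change had a median of -0.066 over all probe sets, and 38.6% of them were above 0. Probe sets below both wild type arrays also outnumbered those above under median centring (51.5% and 14.9%) and quantile normalization (30.9% and 23.2%). Most probe sets were thus slightly lower in lhp1-4, while the calls of at least 2-fold were mostly higher. The size of that slight shift differed with brightness and scaling. The median log2 change was -0.001 over probe sets with a mean intensity of 32 or more. Over all probe sets it was -0.023 after quantile normalization and -0.143 with median-centred arrays.

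Most called changes were modest. The lower and upper quartiles of the log2 change were 0.70 and 1.36 among the rises and -1.07 and -0.55 among the falls. Changes under 2-fold were near balance, with 441 rises and 402 falls. From 2 to 4-fold there were 267 rises and 133 falls, from 4 to 8-fold 70 and 21, and at 8-fold or more 24 and 8. The excess of rises thus lay in the changes of at least 2-fold, with 361 rises and 162 falls. That excess kept its direction with each array centred on its median, at 339 and 199, and without wild type replicate 2, at 372 and 237, although the split of all calls turned to 727 rises and 898 falls and to 831 and 1001. The total of 1366 calls was 1018 with only these 4 arrays in the model, 850 of them shared, 289 without lhp1-4 replicate 1, 358 without lhp1-4 replicate 2 and 669 without wild type replicate 1.

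Rises and falls were next sorted by brightness, the geometric mean intensity over all 8 arrays. Brightness depends on the probes of a set as well as on its transcript, so it was used only to order the signal. It includes the raised or lowered arrays, so a large change by itself moves a probe set between classes. In the dimmest class, under 20, 2.72% of 3305 probe sets rose and 2.03% fell. The share of rises was 5.35% of 5288 at intensities of 20 to 100, 4.67% of 7823 at 100 to 1000 and 4.56% of 1293 at 1000 or more. The share of falls in those classes was 3.1%, 3.41% and 3.48%. Rises outnumbered falls in all 4 classes. With median-centred arrays this held at 20 to 100 only, with 274 rises and 244 falls, and falls led in the other classes. Without wild type replicate 2 the dimmest class turned to 89 rises and 390 falls, while rises still led in the 3 brighter classes.

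Large changes are given by the same classes as a description. Of the 94 rises of at least 4-fold, 50 lay at intensities of 20 to 100 and 30 at 100 to 1000, against 13 in the dimmest class and 1 in the brightest. Of the 29 falls of that size, 13 lay at 20 to 100, 11 at 100 to 1000, 2 in the dimmest class and 3 in the brightest. The dimmest probe sets also had the lowest median log2 change over all their members, -0.14, against 0.002, -0.002 and -0.042 in the classes above. A further 5007 probe sets had values between 3 and 10 on every array, so that their level was not settled, and among these 5 rose and 21 fell.

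**Figure D2:**
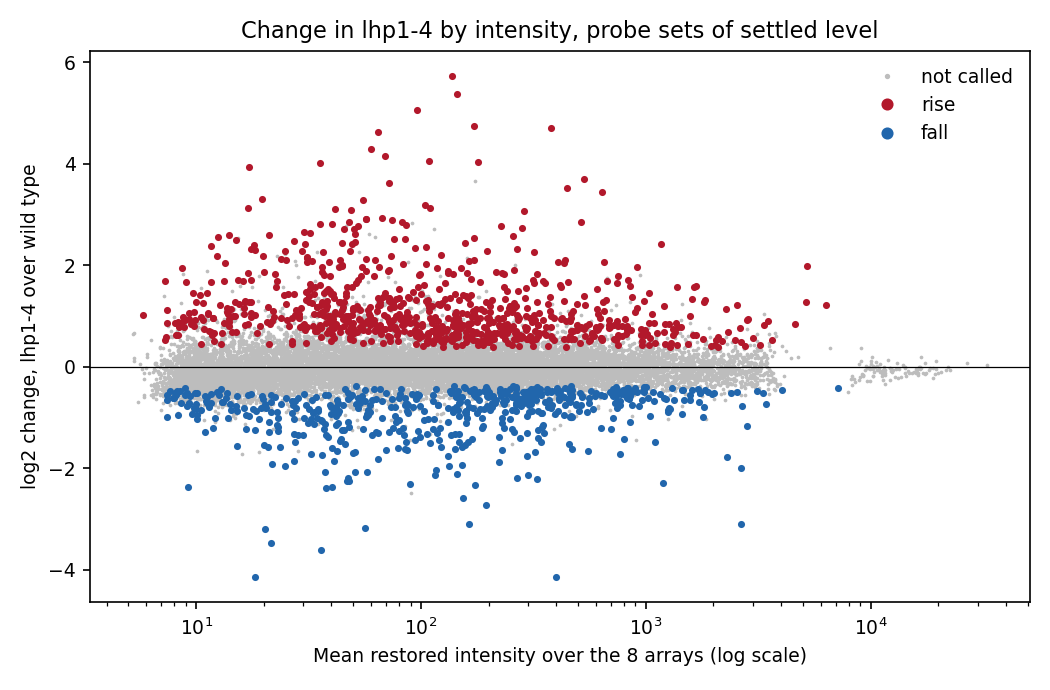
Log2 change of lhp1-4 over wild type against mean restored intensity over the 8 arrays (log scale), 1 point per probe set of settled level, with called rises and falls in colour. Large rises stand mostly between 20 and 1000, where falls reach less far from 0. The plot leaves out the 5007 probe sets whose level was not settled.

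Probe sets under 20 in wild type made up a larger share of the rises of at least 8-fold than of those of at least 2-fold. The 361 rises of at least 2-fold had a median intensity of 112 in lhp1-4, against 31.7 in wild type. In wild type 120 of them, 33.2%, averaged under 20, and in lhp1-4 18 did, 4.99%. Over all 17709 probe sets of settled level 18.9% averaged under 20 in wild type. That share leaves out the 5007 probe sets of unsettled level, which were under 20 as deposited and held 0 rises of at least 2-fold. With them the share would be higher, so 33.2% cannot be set against all probe sets tested. For the 24 rises of at least 8-fold the median was 327 in lhp1-4, against 16.3 in wild type, and 14 of them averaged under 20 in wild type and 0 in lhp1-4. These levels describe the values by which the probe sets were called.

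The levels of the same probe sets on the other 4 arrays entered their choice through the shared estimate of the spread. They also helped to decide how deposited values were read and which probe sets had a settled level. The 361 rises had a median intensity of 163 in the triple mutant, against 45.7 in bpc4 bpc6. The 24 largest had 460 in the triple mutant, against 28.0 in bpc4 bpc6. In bpc4 bpc6 102 of the 361, 28.3%, and 10 of the 24 averaged under 20. Falls showed the reverse picture: the 162 falls of at least 2-fold had a median of 59.1 in lhp1-4 and 153 in wild type, and of 46.3 in the triple mutant and 120 in bpc4 bpc6.

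A small set of probe sets was near the floor of the array in wild type and clearly above it in lhp1-4. In 12 probe sets both lhp1-4 arrays reached 100 or more while both wild type arrays stayed under 20. The count was 21 without wild type replicate 1. The lhp1-4 values of the 12 ran from 101 to 803, against 10.5 to 19.9 in wild type. Log2 changes ran from 2.82 to 5.73, and both 246687_AT and 245275_AT belonged to the set. The opposite pattern, under 20 on both lhp1-4 arrays and 100 or more on both wild type arrays, occurred in 2 probe sets, one of them 247878_AT. Replicates could also fall on either side of both limits, in 0 probe sets within lhp1-4 and in 5 within wild type. No detection calls were used here, so a value under 20 is a dim signal and not an absence of transcript. Probe sets at 3 to 10 in one genotype and 100 or more in the other could stay undecided where no other array lay between. The 30 undecided probe sets were left out, so both counts can miss probe sets of these patterns.

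On the second set of arrays, 11 of these 12 probe sets rose in the triple mutant over bpc4 bpc6 (limma adjusted p under 0.05), where 10.5% of all probe sets rose. Their median log2 change there was 3.56, against a median of -0.051 over all probe sets. In the triple mutant 9 of the 12 reached 100 or more on both arrays, against 0 in bpc4 bpc6, and 6 stayed under 20 on both bpc4 bpc6 arrays. The highest bpc4 bpc6 array value in the set was 116. The size of the LHP1 effect differed between the backgrounds for 3 of the 12 (limma interaction, adjusted p under 0.05), where 2.33% of all probe sets had such a call. The 12 were chosen by lhp1-4 and wild type values that also enter this test. That choice favours interaction calls, so these numbers cannot be set against each other. Among those 3 the LHP1 effect was smaller without BPC4 and BPC6 in 2 and larger in 1. In 1 of the 2 no rise was called without BPC4 and BPC6. Its log2 change was -0.42 in the triple mutant over bpc4 bpc6 (adjusted p = 0.355, limma), against 2.92 in lhp1-4 over wild type. Its bpc4 bpc6 arrays were already at 70.4 and 116, against 17.2 and 13.6 in wild type. Whether that higher start accounts for the difference was not tested. The interaction calls over all probe sets were few and unstable, 529 with all arrays and 23 to 401 with 1 array left out, lowest without lhp1-4 replicate 2.

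**Figure D3:**
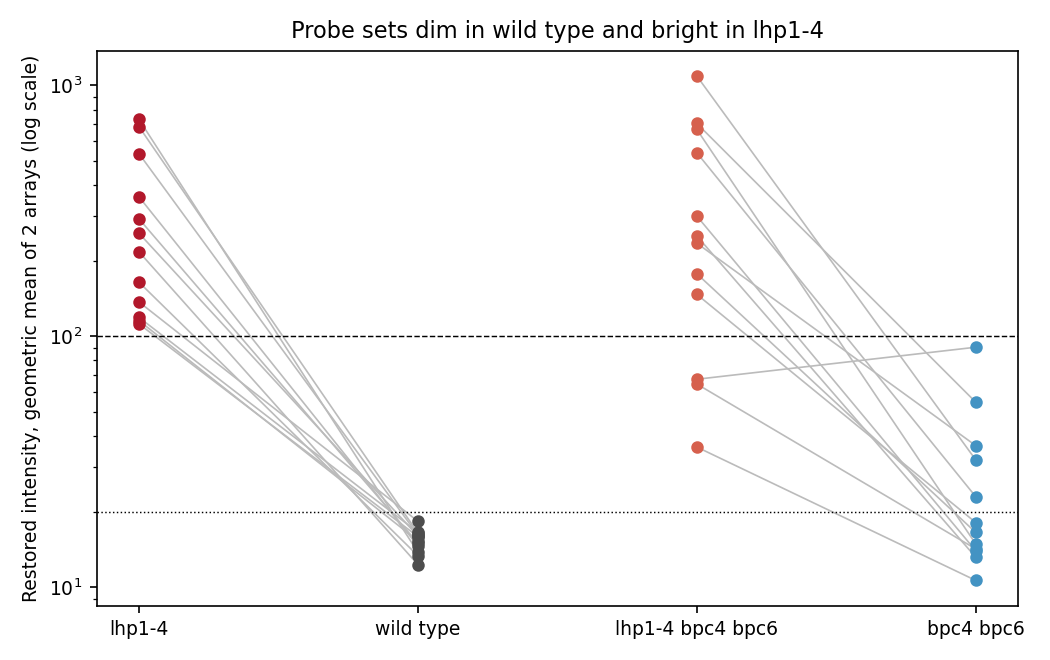
Restored intensity (log scale, geometric mean of 2 arrays) of the 12 probe sets at 100 or more on both lhp1-4 arrays and under 20 on both wild type arrays, with lines joining each mutant to its reference and limits at 100 (dashed) and 20 (dotted). All 12 lie under 20 in wild type by the choice of the set, and in bpc4 bpc6 they spread from 10.6 to 90.3.

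The share of changes called again in the second background was higher in the larger size classes. A larger change passes a threshold on p more easily, so this share does not rank the classes by how well they recur. Of the rises under 2-fold, 298 of 441 (67.6%) also rose in the triple mutant over bpc4 bpc6. The share was 218 of 267 (81.6%) at 2 to 4-fold, 60 of 70 (85.7%) at 4 to 8-fold and 23 of 24 (95.8%) at 8-fold or more. For falls it was 250 of 402 (62.2%), 102 of 133 (76.7%), 18 of 21 (85.7%) and 8 of 8 in the same classes, where 10.9% of all probe sets fell. Of all 2-fold rises 83.4% were called again, and 70.3% where each comparison was fitted on its own 4 arrays, so that no spread was shared. For 2-fold falls these shares were 79.0% and 68.3%. Calls in the opposite direction were few, with 14 rises and 9 falls under 2-fold, 2 rises and 3 falls at 2 to 4-fold and 0 above that.

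Median sizes were set side by side in both backgrounds. Rises of 2 to 4-fold had a median log2 change of 1.29 in lhp1-4 over wild type and 1.36 in the triple mutant over bpc4 bpc6. Rises of 8-fold or more had medians of 3.81 and 3.48. Falls of 2 to 4-fold had medians of -1.30 and -1.08, and falls of 8-fold or more -3.33 and -2.50. Probe sets were chosen by the first value of each pair, which favours it.

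**Figure D4:**
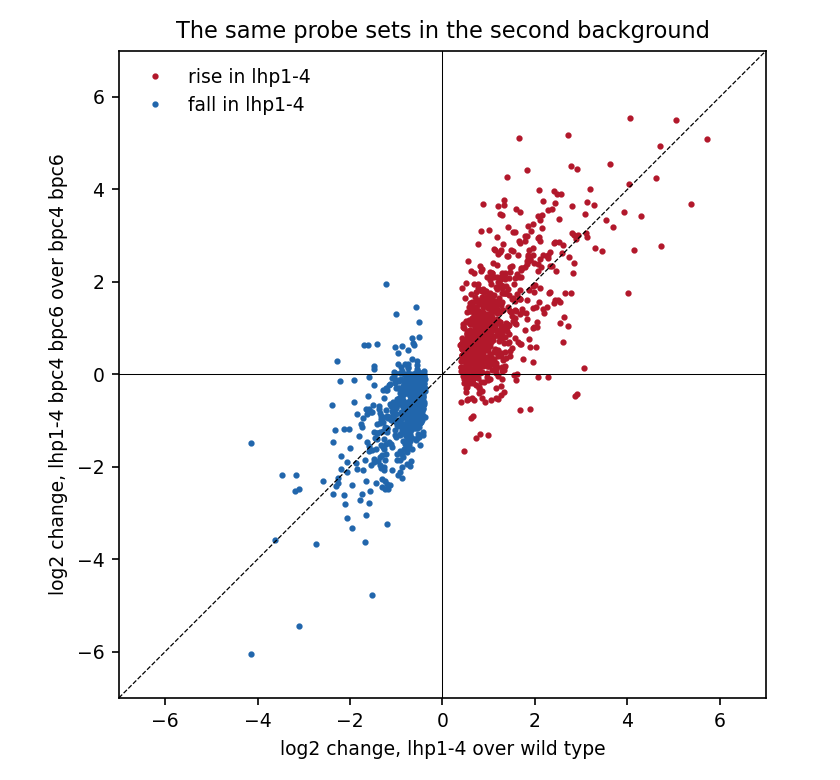
Log2 change of the triple mutant over bpc4 bpc6 against log2 change of lhp1-4 over wild type for the 802 rises and 564 falls of lhp1-4, with the line of equal change dashed. No array is shared between the changes on the axes, and 739 of the 802 rises lie above 0 on the vertical axis and 522 of the 564 falls below it. Over all probe sets 38.1% were above 0 in that background.

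Probe sets also differ in how specific they are. By the naming convention of the array's maker, identifiers ending in _AT match 1 transcript, and those ending in _S_AT or _X_AT can match more than 1. Among _AT probe sets 772 of 21656 rose (3.56%) and 542 fell (2.50%). Among _S_AT probe sets 28 of 934 rose (3.00%) and 20 fell (2.14%), and among _X_AT probe sets 2 of 126 rose and 2 fell. Calls of lhp1-4 therefore came mostly from probe sets of the specific kind, which make up most of the array, and all 4 probe sets described singly are of that kind.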

How the data were processed

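Total RNA of untreated shoots was amplified and biotin-labelled, per the labels' protocols. Per the submitters' processing notes, the authors deposited RMA intensities, background-corrected and quantile-normalised summaries per probe set; the sources used here do not give its version or probe set definition. The deposited intensities were linear, from 1 to 999.7. It was inferred from the values, and not checked against scanner files, that any intensity of at least 1000 had been written after division by 1000. Values under 3, or of 10 to 100 with 3 decimals, were multiplied by 1000. A value of 10 to 100 with fewer decimals was also multiplied where that brought it to within 5-fold of a value so multiplied in its probe set. Other values of 3 to 10 were read as the settled values of their probe set allowed (within 5-fold under one reading and 20-fold or more away under the alternative). In 5007 probe sets all 8 values lay there, and their folds do not depend on the reading if all share 1 reading. Of 22746 probe sets, 30 stayed undecided and were left out, and 1 control probe set was dropped. Log2 values were compared in limma 3.58.1 (R 4.3.3) with a group-means model over all 8 arrays, 4 residual and 2.85 prior degrees of freedom, and Benjamini-Hochberg adjustment over 22716 probe sets. The restoration was tested on values simulated from probe sets that its rule had already settled. That test cannot show which probe sets the rule misread or left out. The limma fit was tested on simulated independent normal noise with added changes, without shifts between arrays. Precision is limited by the number of arrays, with a median SE of 0.13 per log2 change. The probe sets named are the 2 largest rises and 2 largest falls among calls whose arrays did not overlap, fewer than the rule had planned because no gene names could be given. A planned search for GAGA motifs in promoters was not run, since no promoter sequences were used here. Comparisons, limits of 20 and 100 and size classes were chosen with earlier results of these data known. Replicate numbers were not taken as pairs of samples.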

Additional observations from a re-analysis of the deposited data

Results flagged for a closer look

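For probe set 247878_AT the log2 changes with and without BPC4 and BPC6 differed by 2.65 ± 0.24 in limma's interaction test (adjusted p = 0.00821), at -1.50 in the triple mutant over bpc4 bpc6 and -4.15 in lhp1-4 over wild type. As read with the help of the bpc4 bpc6 arrays, its intensities were 6.91 and 5.43 in the triple mutant and 7.69 and 7.67 in lhp1-4. Both were near the floor of the array, against 19.4 and 15.4 in bpc4 bpc6 and 151 and 122 in wild type. This difference cannot be assigned to the starting levels or to a different response to the loss of LHP1, which cannot be told apart here. Over the alternatives run on restored values it lay between 2.48 and 2.82, with an adjusted p between 0.0017 and 0.0521.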

How the results depend on the processing

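Leaving out 1 array gave 289 to 1832 calls for lhp1-4 against wild type, 2845 to 5021 for the triple mutant against bpc4 bpc6 and 23 to 401 for the interaction. These fits also have fewer degrees of freedom. All other alternatives kept the 3 counts within 1.5 times, and lhp1-4 against wild type ranged from 1018 calls with only the 4 arrays compared to 1630 with a trended, robust prior. On the values as deposited 258419_AT reversed, to 5.82 in lhp1-4 over wild type and 3.92 in the triple mutant over bpc4 bpc6, and 246687_AT gave -4.88 in the triple mutant over bpc4 bpc6, by the construction of those values. The 12 probe sets dim in wild type and bright in lhp1-4 were 21 without wild type replicate 1 and 9 to 17 under the other alternatives on restored values, which were chosen after seeing the data. Of the 2-fold rises 70.3% to 88.8%, and of the 2-fold falls 54.0% to 85.3%, were called the same way in the second background, the lowest share of falls without wild type replicate 2. Rises made up 58.7% of calls, 44.7% with median-centred arrays, where the median log2 change of all probe sets was -0.143, and 45.4% without wild type replicate 2. A fit with the replicate block gave 1397, 5006 and 566 calls for the 3 comparisons and changed no call of the 4 probe sets described singly. Differences between replicates 1 and 2 correlated at -0.00863 between lhp1-4 and wild type and at 0.231 between the triple mutant and bpc4 bpc6, and over the other pairs of genotypes from -0.184 to 0.208. The sign was not shared by all pairs, so shared numbers were not taken as pairs. Signals near the floor limit what dim probe sets can show.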
